A study of Mus musculus with 12 samples.

Results

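The sarcomeric myosin genes of cultured mouse muscle cells were followed through differentiation, with and without knockdown of Kctd10. They comprise 10 genes taken by symbol: the heavy chain genes Myh1, Myh2, Myh3, Myh4, Myh7 and Myh8 and the light chain genes Myl1, Myl4, Myl6b and Mylpf. They are 10 of the 25750 genes to which the listed transcripts could be matched, and 10 of the 13079 genes that passed a filter on low values. The rule that names them uses no measured value, but the genes were chosen with earlier results of these data known.

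The cells were C2C12, an established mouse myoblast line that fuses into myotubes when serum is lowered, and the series concerned actin remodelling by ubiquitin ligases in that fusion. Kctd10 encodes a substrate adaptor of cullin-based ubiquitin ligases. Poly(A)-selected RNA of 12 libraries was sequenced, with 3 libraries in each of 4 groups. The D0 siControl and D0 siKctd10 groups were undifferentiated, subconfluent myoblasts in 10% fetal bovine serum, harvested 48 h after transfection of a non-targeting siRNA or of 1 siRNA against Kctd10. The D2 siControl and D2 siKctd10 groups received the same siRNAs, were moved 24 h later into 2% horse serum and were harvested after 48 h in that medium. By this timing, D0 and D2 differed in serum and in time since transfection as well as in differentiation. All 4 groups thus carried an siRNA, and the effect of Kctd10 was read with a single siRNA sequence. The labels give triplicates without naming separate cultures, so each p-value weighs a difference against the spread of these libraries, which may be technical.

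The deposited values used were TPM (transcripts per 1000000 transcripts), which are scaled for transcript length and were summed here per gene. The libraries held between 12.51 and 18.08 times 1000000 read pairs, estimated from the coverage. Kctd10 stood at 266 ± 7.32 TPM (SD, n = 3) in D0 siControl and 23.1 ± 2.69 TPM (SD, n = 3) in D0 siKctd10, and at 283 ± 6.77 and 32 ± 4.58 TPM at D2. The summed level of 6 markers of differentiating muscle (Myog, Acta1, Ckm, Tnnt3, Tnnc2, Mymk) ran from 90 to 124 TPM in D0 siControl and from 153 to 214 TPM in D0 siKctd10. At D2 it ran from 1826 to 2203 TPM in siControl and from 1186 to 1377 TPM in siKctd10. Most of the sum was Acta1, at means of 87.4 and 169 TPM in D0 siControl and D0 siKctd10 (log2 difference 0.94, limma adjusted p = 0.017). At D2 its means were 1376 and 909 TPM. The mean TPM of Tnnt3 was not lower in D2 siKctd10, at 10.5 ± 11.9 against 9.6 ± 2.42 TPM (SD, n = 3). With that spread its log2 difference was -0.36 (SE 0.56, limma adjusted p = 0.78). All 4 adipocyte markers (Adipoq, Plin1, Fabp4, Cidec) were listed at 0 in the 12 libraries. The leukocyte, endothelial and neural lists summed to at most 2.55, 1.65 and 1.05 TPM, with Ptprc, Adgre1, Kdr and Snap25 at 0 throughout. The cardiac list summed to between 3.28 and 11.7 TPM.

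Muscle myosin is a motor built from a pair of heavy chains, each of which binds an essential and a regulatory light chain. The heavy chain isoform sets the speed of contraction: developing muscle uses embryonic myosin (Myh3) and perinatal myosin (Myh8), slow fibres use Myh7, and fast fibres use Myh2 (type IIa), Myh1 (type IIx) or Myh4 (type IIb). Among the light chains, Myl1 is the essential chain of fast fibres, Myl4 that of embryonic and atrial muscle and Myl6b that of slow and non-muscle cells, while Mylpf is the regulatory chain of fast muscle.

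In the mm10 (GRCm38) assembly, 5 of the 6 heavy chain genes lie in 1 cluster on the plus strand of chromosome 11, in the order Myh3 (chr11:67078300-67102291), Myh2 (chr11:67171027-67197517), Myh1 (chr11:67200052-67224575), Myh4 (chr11:67238029-67260446) and Myh8 (chr11:67277124-67308634). Myh7 lies at chr14:54970684-54994626. The light chain genes are dispersed, with Myl1 at chr1:66924295-66945404, Myl4 at chr11:104550663-104595753, Myl6b at chr10:128494157-128498685 and Mylpf at chr7:127208890-127214298.

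The 250 bases before each start site (RefSeq, GRCm38.p6) were searched on both strands for binding motifs of muscle transcription factors. The motif of MEF2, a family of muscle regulators, was found in 3 of the 10 genes, Myh1, Myh4 and Myh8, against 2.9% of 32851 promoters, and the 3 matches carry the same letters. These windows are shown because Myh1, Myh4 and Myh8 carry the same match letters, given in capitals. Myh2, also a fast gene of the cluster, has no match, and the window of it most like that of Myh1 is given, in which 29 of 40 bases are the same and the capitals mark the letters at the place of the match.
Myh1 (chr11:67199876-67199915, plus strand): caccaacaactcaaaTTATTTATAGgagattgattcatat
Myh4 (chr11:67237615-67237654, plus strand): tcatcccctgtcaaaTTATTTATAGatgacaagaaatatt
Myh8 (chr11:67277010-67277049, plus strand): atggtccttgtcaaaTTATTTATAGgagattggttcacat
Myh2 (chr11:67170844-67170883, plus strand): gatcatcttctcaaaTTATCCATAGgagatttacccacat
The Myh8 window has 29 of 40 bases in common with that of Myh1, and the Myh4 window 19. Myh1, Myh4 and Myh8 are related genes of the same cluster, so their matches are not independent. The comparison with all promoters is therefore a description.

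The E-box CAGCTG, which is a case of the wider E-box CANNTG bound by MyoD-type factors, was found in Myh4, Myl1 and Mylpf (3 of 10, against 13.0% of all promoters). Myh4 had the lowest mean of the 10 genes in D2 siControl (1.46 TPM). Myh3 (324 TPM) and Myl4 (264 TPM) have no CAGCTG in this window. A link of the E-box to level was not tested. The 2 light chain windows are shown with the E-box in capitals.
Mylpf (chr7:127211542-127211577, plus strand): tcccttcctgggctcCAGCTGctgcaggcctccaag
Myl1 (chr1:66945260-66945295, minus strand): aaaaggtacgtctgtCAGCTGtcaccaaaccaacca
CANNTG itself was present in 7 of the 10 genes and in 66.2% of all promoters. The motif CATTCC was found in 4 of the 10 genes (12.6% of promoters) and TATAAA in 3 (7.6%). These matches describe the letters only, and a missing match says only that the letters are not in this window.

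The first comparison asked which myosins the cells made as they differentiated, in the siControl arm. Differentiation brought embryonic myosin and the fast light chains to high levels, with every adult heavy chain well below Myh3. Myh3 stood at 1.38, 3.33 and 2.89 TPM in the 3 D0 siControl libraries and at 332, 340 and 299 TPM at D2, a difference of 6.57 on the log2(TPM + 1) scale (SE 0.45, limma adjusted p = 3.1e-06). This scale, used for every log2 difference here, understates changes of low genes. The D2 values lay far above all D0 values.

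Perinatal Myh8 was listed at 0, 0.0251 and 0.0266 TPM at D0, about 1 read pair or none, and at 16.4, 16.2 and 18.7 TPM at D2. Slow Myh7 went from 0.127, 0.131 and 0.377 TPM to 12.1, 13.5 and 12.8 TPM. Of the adult fast chains, Myh1 reached 22.8, 21.9 and 11.5 TPM, Myh2 2.64, 3.93 and 2.33 TPM, and Myh4 1.5, 1.12 and 1.77 TPM. Myh4 was listed at 0 in all 3 D0 siControl libraries and Myh2 in 2 of them. Myh3 alone therefore made up 85.9 ± 0.402% (SD, n = 3) of heavy chain TPM in D2 siControl, the 3 fast chains together 6.09 ± 1.37%, Myh8 4.58 ± 0.714% and Myh7 3.4 ± 0.289%. Myh1 and Myh8 exchanged places between libraries, so the order of the heavy chains below Myh3 was not fixed beyond the spread, apart from Myh2 and Myh4, which came last in each library.

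The light chains as a sum stood above the heavy chains in TPM. Mylpf was the highest member in each D2 siControl library, at 1109, 1160 and 1240 TPM. Myl1 reached 324, 274 and 233 TPM and Myl4 291, 186 and 314 TPM, so that their order differed between libraries. Myl6b, expressed before differentiation at 11.1, 5.17 and 4.83 TPM, stood at 87.8, 89.4 and 73.7 TPM. Myl4 was listed at 0 in all 6 D0 libraries, while Mylpf at D0 ranged from 0.672 to 8.79 TPM in siControl and was listed at 0 in 1 siKctd10 library. The light chain sum was 4.79 ± 0.541 times the heavy chain sum in D2 siControl (SD, n = 3).

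**Figure D1:**
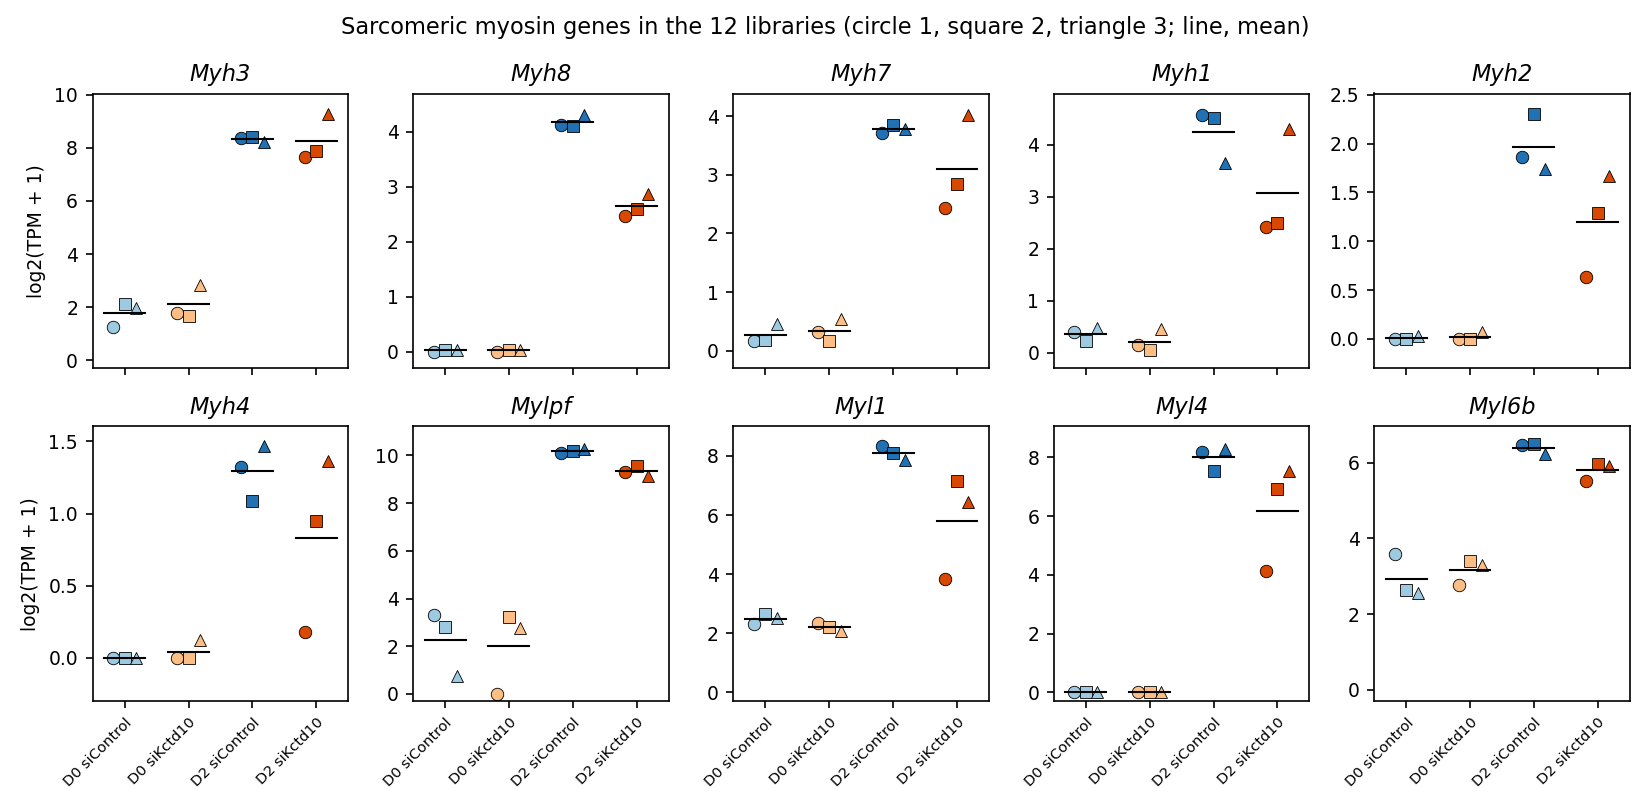
Level of each sarcomeric myosin gene as log2(TPM + 1) in the 12 libraries, with 1 symbol per library and a line at the mean of each group of 3. All D2 values lie above all D0 values for each gene, and the siKctd10 libraries at D2 spread most for Myl1 and Myl4.

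All 10 genes were called higher at D2 in siControl and all 10 in siKctd10, at a limma adjusted p under 0.05, where 21.4% and 23.1% of the 13079 tested genes were called higher. These counts are a description: Myh1, Myh2, Myh4, Myh7, Myh8 and Myl4 were under 1 TPM in every D0 library and passed the filter only through D2, so they had to differ. The median log2 difference of the 10 genes was 4.02 in siControl and 2.81 in siKctd10, against 0.09 and 0.12 for all tested genes. The call of Myh4 in siKctd10 (0.79, SE 0.25, limma adjusted p = 0.032) was lost in 8 of the alternative settings, for example without D2 siKctd10 library 3 (0.52, adjusted p = 0.095).

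Before differentiation, no sarcomeric myosin passed the test with knockdown of Kctd10, a count that is only a description. Myh1, Myh2, Myh4, Myh7, Myh8 and Myl4 were under 1 TPM in every D0 library, so on this scale they could hardly differ. None of the 10 genes was called at D0 in limma (lowest adjusted p = 0.73; 0 at an unadjusted p under 0.05, and 0 by voom), where 2.45% of tested genes were called in either direction, and their differences ran from -0.28 for Myl1 to 0.33 for Myh3. Myh3 was at 2.48, 2.17 and 6.23 TPM in D0 siKctd10, where library 3 was the highest of the 6 D0 libraries and the other 2 lay within the siControl range. Values this low rest on few reads: 52 to 223 read pairs for Myh3 and 1 to 15 for Myh1 at D0.

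At D2, the second comparison, most sarcomeric myosins stood lower in siKctd10 than in siControl, but only perinatal Myh8 passed the test across all genes. All 10 log2 differences were below 0, with a median of -0.81 against 0.08 for all tested genes. Myh2 and Myh4 reached 1 TPM in all 3 libraries of D2 siControl but of no other group. They passed the filter only through that group, where they were higher, so counts at D2 that include them are a description. Of the 10, 1 gene was called, and it was lower; 4.75% of tested genes were called in either direction and 1.92% lower. For 6 genes (Myh2, Myh8, Myl1, Myl4, Myl6b and Mylpf) all 3 siKctd10 values lay below all 3 siControl values, as they did for 9.92% of all tested genes. In bulk RNA, fewer cells that make a myosin and less myosin RNA in each cell cannot be told apart.

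Myh8 stood at 4.54, 5.06 and 6.34 TPM in siKctd10 against 16.4, 16.2 and 18.7 TPM in siControl, which is 31% of the siControl mean. The groups did not overlap, and the log2 difference was -1.53 (SE 0.12, limma adjusted p = 0.00022). The difference between the siRNA effects at D2 and at D0 was also -1.53 (SE 0.18, limma adjusted p = 0.0052). Myh8 was near 0 at D0 in both arms and passed the filter only through D2, so this value repeats the D2 difference and adds nothing to it. No other member was called by this test, where 0.742% of tested genes were called, and the call of Myh8 was lost with a pseudocount of 0.1 (adjusted p = 0.065), with voom (0.66) and with intron matching only (0.39). Myh8 is spread over 8 listed transcripts, of which 5 were above 0 in some library. Its full-length transcript of 40 exons stood at 5.72, 7.74 and 5.36 TPM in siControl and at 0.907, 1.31 and 4.83 TPM in siKctd10, so that in library 3 it was below the siControl range but close to it. The median of the 4 exons read in all 6 D2 libraries stood at 22.0%, 24.2% and 80.7% of the siControl mean in the 3 siKctd10 libraries. A short transcript of 2 exons and 422 bases was at 7.09, 4.44 and 9.38 TPM in siControl and at 3.04, 2.03 and 1.5 TPM in siKctd10. With transcripts matched by identical introns only, which keeps the full-length form, the difference was -1.29 (SE 0.34) and was no longer called (limma adjusted p = 0.068).

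Embryonic Myh3 showed no difference in its mean, at 349 ± 229 against 324 ± 21.7 TPM (SD, n = 3; log2 difference -0.08, SE 0.45, limma adjusted p = 0.95). That mean joins unlike libraries. Libraries 1 and 2 of D2 siKctd10 were at 199 and 234 TPM, below the siControl range, and library 3 was at 612 TPM, above it. Without library 1 or library 2 the sign turned, to 0.23 and 0.11. The coverage of single exons separated the libraries further. Myh3 has 1 transcript above 0, of 41 exons, and 18 of its exons were read in all 6 D2 libraries. In libraries 1 and 2 the median exon was covered at 60.2% and 70.7% of the siControl mean. In library 3, 10 of the 18 exons were covered at 44.6 to 115.6% of siControl with a median of 74.0%, while the other 8 stood at 218.2 to 452.7%. Neighbouring exons fell on opposite sides: the exon of 146 bases numbered 25 stood at 218.2% and the next one at 44.6%. The D0 siKctd10 library of the same number was the highest of the 6 D0 libraries at 7 of those 8 exons, for example at exon 34 with a coverage of 2.46 per 1000000 read pairs, and at 2 of the other 10.

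**Figure D2:**
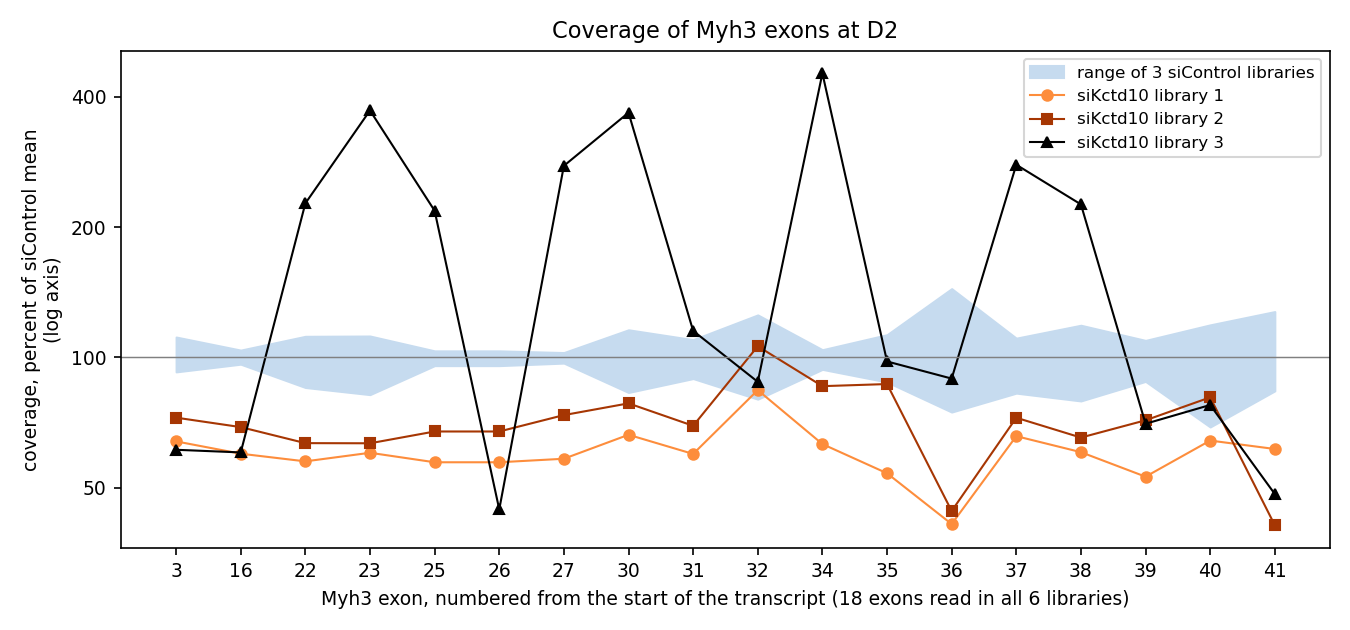
Coverage of the 18 Myh3 exons read in all 6 D2 libraries, as a percentage of the siControl mean of that exon on a log axis, with the exons in order from the start of the transcript. The lines of siKctd10 libraries 1 and 2 run below or within the shaded siControl range, and that of library 3 moves between 44.6% and 452.7%.

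Exons of the same length stood out in some of the related chains of that library. The exon of 390 bases was covered at 277% of siControl in Myh3, 329% in Myh1 and 905% in Myh7, and at 114% in Myh8. The exon of 243 bases stood at 373% in Myh3 and 294% in Myh7, but at 74.9% in Myh1. In libraries 1 and 2 the exon of 390 bases was covered at 58.4% and 73.7% in Myh3, 31.4% and 51.5% in Myh1, and 18.8% and 32.6% in Myh7. Such unevenness was seen elsewhere in library 3: of 235 genes with 1 transcript and at least 5 exons read in all 6 D2 libraries, summed coverage exceeded the median exon by more than 1.5 times in 12 (5.11%), and in no more than 1 gene in each of the other 5 libraries. The part of this unevenness in the myosin values was not tested, beyond leaving the library out. The files list 13 to 20 of the 41 Myh3 exons at 0 in each D2 library, which limits what any exon value can show.

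The heavy chains are close relatives, so reads can be shared between them. Of the 101-base windows in the longest coding transcript of each gene, none of Myh3 and none of Myh7 occurs in another of the 6 chains. The share was 9.26% for Myh1, 8.91% for Myh2, 5.01% for Myh8 and 3.74% for Myh4. The longest run in common was 268 bases between Myh1 and Myh2, and 164 bases between Myh4 and Myh8. The values of these 4 genes are uncertain to that extent. Shorter runs are not counted in these shares, and Myh3 has a run of 94 bases in common with Myh1. Myh6, at a mean of 5.14 TPM in D2 siControl, was not among the chains compared. Reads shared with Myh6, or over shorter runs, were thus not assessed for Myh3 and Myh7.

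Slow Myh7 and fast Myh1 followed Myh3 in their spread. Myh7 was at 4.38, 6.21 and 15.3 TPM in D2 siKctd10, 2 libraries below the siControl range of 12.1 to 13.5 TPM and library 3 above it (log2 difference -0.68, SE 0.33, limma adjusted p = 0.31). The median of 27 Myh7 exons stood at 31.7%, 46.8% and 53.9% of siControl in the 3 libraries, so by this measure library 3 was low as well. Myh1 was at 4.37, 4.64 and 18.7 TPM against 22.8, 21.9 and 11.5 TPM, with overlap (-1.17, SE 0.46, limma adjusted p = 0.2). A short Myh1 transcript of 3 exons contributed 10.8 and 11.5 TPM in siControl libraries 1 and 2 and 0 in the other 4 D2 libraries. The full-length Myh1 transcript was at 12, 10.4 and 11.5 TPM in siControl and 4.37, 4.64 and 18.7 TPM in siKctd10. Without D2 siKctd10 library 3, the calls in limma were 4 of 10 genes, all lower, where 1.19% of tested genes were called lower: Myh8, Myh1 (-1.79, adjusted p = 0.014), Myh7 (-1.14, adjusted p = 0.015) and Myh2 (-1.0, adjusted p = 0.049). Of these, Myh2 passed the filter only through D2 siControl.

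The remaining fast chains were low throughout. Myh2, the type IIa chain, stood at 0.554, 1.45 and 2.17 TPM in siKctd10 and at 2.64, 3.93 and 2.33 TPM in siControl, without overlap (-0.77, SE 0.24, limma adjusted p = 0.11). Myh4, the type IIb chain, stood at 0.132, 0.933 and 1.57 TPM against 1.5, 1.12 and 1.77 TPM, with overlap (-0.46, SE 0.25, limma adjusted p = 0.36). These rest on 19 to 118 read pairs for Myh2 and 5 to 55 for Myh4.

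**Figure D3:**
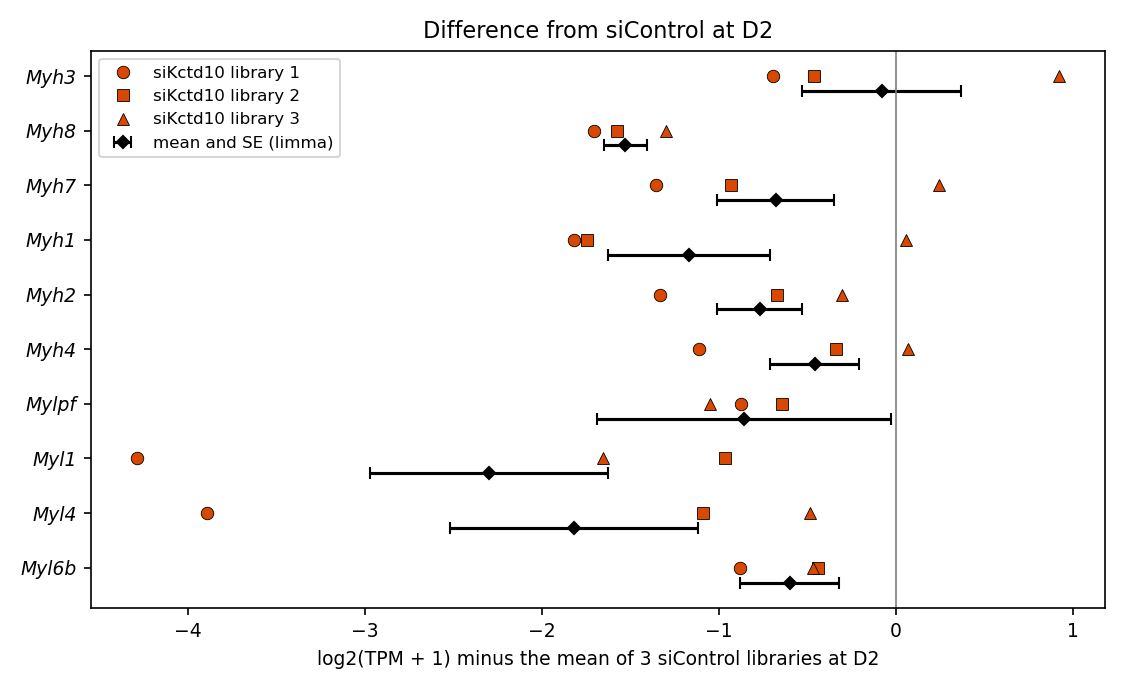
Difference of each D2 siKctd10 library from the mean of the 3 D2 siControl libraries, as log2(TPM + 1), with the limma estimate and its SE below. Library 3 (triangles) lies above 0 for Myh3, Myh7, Myh1 and Myh4 and below 0 for Mylpf, Myl1, Myl4 and Myl6b.

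All 4 light chains stood lower in D2 siKctd10 without overlap, although none passed the test across all genes. Their listed transcripts are short, at 654 to 1026 bases. Short genes as a whole were lower in these libraries: the 431 single-transcript genes of up to 1000 bases differed from the siControl mean by a median of -0.13, -0.06 and -0.19 on the log2 scale in siKctd10 libraries 1, 2 and 3, and the 306 genes over 4500 bases by 0.13, 0.18 and 0.10. In the siControl libraries these medians lay between -0.08 and 0.06. The part of this trend in the light chain differences and in the ratio of light to heavy chains was not tested. Mylpf, the regulatory light chain, was at 637, 747 and 564 TPM against 1109, 1160 and 1240 TPM, which is 55.5% of the siControl mean. Its log2 difference of -0.86 carried an SE of 0.83 (limma adjusted p = 0.62), and this SE is shared with the D0 libraries, where Mylpf varied from 0 to 8.79 TPM. Fitted on the D2 libraries alone the SE was 0.12 and the call was made (limma adjusted p = 0.034). Myl6b was at 44.8, 61.2 and 59.8 TPM against 87.8, 89.4 and 73.7 TPM, or 66.1% of the siControl mean (-0.60, SE 0.28, limma adjusted p = 0.29). In both genes, which have a single listed transcript, the median exon was below siControl in all 3 siKctd10 libraries. It stood at 57.3%, 59.7% and 44.1% for Mylpf and at 54.6%, 69.9% and 61.6% for Myl6b. These medians rest on the 3 exons of Mylpf and 4 of Myl6b read in all 6 D2 libraries. In library 3 the highest Mylpf exon stood at 125.1%.

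Myl1, the essential chain of fast fibres, was at 13.1, 140 and 86.6 TPM against 324, 274 and 233 TPM, which is 28.9% of the siControl mean (-2.30, SE 0.67, limma adjusted p = 0.092). Library 1 was far below the other 2, and without it the difference was smaller and was called (-1.31, adjusted p = 0.023). Without library 2 it was also called (-2.97, adjusted p = 0.037). Nearly all Myl1 RNA was assigned to the long form of the gene, at 315, 267 and 233 TPM in siControl and 13.1, 136 and 81.1 TPM in siKctd10. The short form, which starts at an internal promoter, was at most 8.61 TPM in any library. The first exon of the long form (chr1:66944792-66945056, 265 bases) was covered 11.4, 13.5 and 15 times per 1000000 read pairs in siControl and 2.94, 4.03 and 2.93 times in siKctd10, or 24.8% of siControl. By this exon library 1 did not stand apart. The low TPM of library 1 coincided with an exon of 144 bases, covered 0.329 times in library 1 and 62.6 and 36.4 times in libraries 2 and 3, against 134, 92.8 and 77.1 times in siControl.

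Myl4, the embryonic essential chain, was at 16.4, 120 and 183 TPM against 291, 186 and 314 TPM (-1.82, SE 0.70, limma adjusted p = 0.19). Library 1 was again the lowest, and library 3 came within a few TPM of the lowest siControl library. Myl4 has 2 listed transcripts that took turns: the form of 6 exons carried 291, 0 and 282 TPM in siControl, and the form of 9 exons 0, 186 and 32 TPM. Only 1 of its exons was read in all 6 D2 libraries. An exon of 174 bases was covered 57, 59.9 and 43.2 times on the same scale in siControl and 0 in all 3 siKctd10 libraries. An exon of the same length in Myl1 was covered 19.9, 22.1 and 18.5 times in siControl and 0.0361, 0 and 0 times in siKctd10, while that of Myl6b stood at 68.3% of siControl. Among genes with 1 transcript, 5 of 1031 exons covered at least 10 times on this scale in all D2 siControl libraries fell under 0.1 in all D2 siKctd10 libraries (0.485%), and 8 of 1028 did so the other way (0.778%). The share of this in the Myl1 and Myl4 values was not tested.

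The makeup of the heavy chain pool differed more evenly between the arms than the levels did. Myh3 made up 85.7%, 85.7% and 86.4% of heavy chain TPM in D2 siControl and 93.5%, 92.8% and 93.3% in D2 siKctd10. The 3 siKctd10 libraries, library 3 among them, lay above all siControl libraries, and the difference of the means was 7.22 percentage points (exact 2-sided permutation p = 0.1, the smallest possible with 3 against 3; 0.16 after Benjamini-Hochberg adjustment over 14 pool quantities). The share of Myh8 went the other way, from 4.58 ± 0.714% to 1.7 ± 0.637% (SD, n = 3; exact permutation p = 0.1, adjusted 0.16). The fast chains Myh1, Myh2 and Myh4 together held 6.09 ± 1.37% in siControl and 2.86 ± 0.533% in siKctd10, and Myh7 3.4 ± 0.289% and 2.28 ± 0.208% (SD, n = 3; each exact permutation p = 0.1, adjusted 0.16). From read pairs instead of TPM, the Myh3 difference was 4.57 and the Myh8 difference -1.7 percentage points. From the median exon of Myh1, Myh3, Myh7 and Myh8 alone, Myh3 held 86.3 to 88.4% of the sum in siControl and 88.9 to 93.2% in siKctd10, with library 3 the lowest of the latter. By this measure Myh1 held 3.63%, 3.5% and 7.13% in siKctd10 against 5.21 to 5.77% in siControl, so that library 3 lay above siControl. The TPM share of Myh1 in siControl libraries 1 and 2 includes the 3-exon transcript at 10.8 and 11.5 TPM.

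Summed heavy chain TPM was 213, 253 and 656 in siKctd10 against 388, 397 and 346 in siControl, with library 3 above and the others below (exact permutation p = 1, adjusted 1). Summed light chain TPM was 711, 1068 and 894 against 1811, 1710 and 1861, with no overlap (exact permutation p = 0.1, adjusted 0.16). The ratio of light to heavy chain TPM was 3.33, 4.23 and 1.36 in siKctd10 against 4.67, 4.31 and 5.38. Within the light chain pool, Myl6b took a larger share in siKctd10, 6.24 ± 0.483% against 4.68 ± 0.651% (SD, n = 3; exact permutation p = 0.1, adjusted 0.16). The shares of Mylpf, Myl1 and Myl4 overlapped between the arms.

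**Figure D4:**
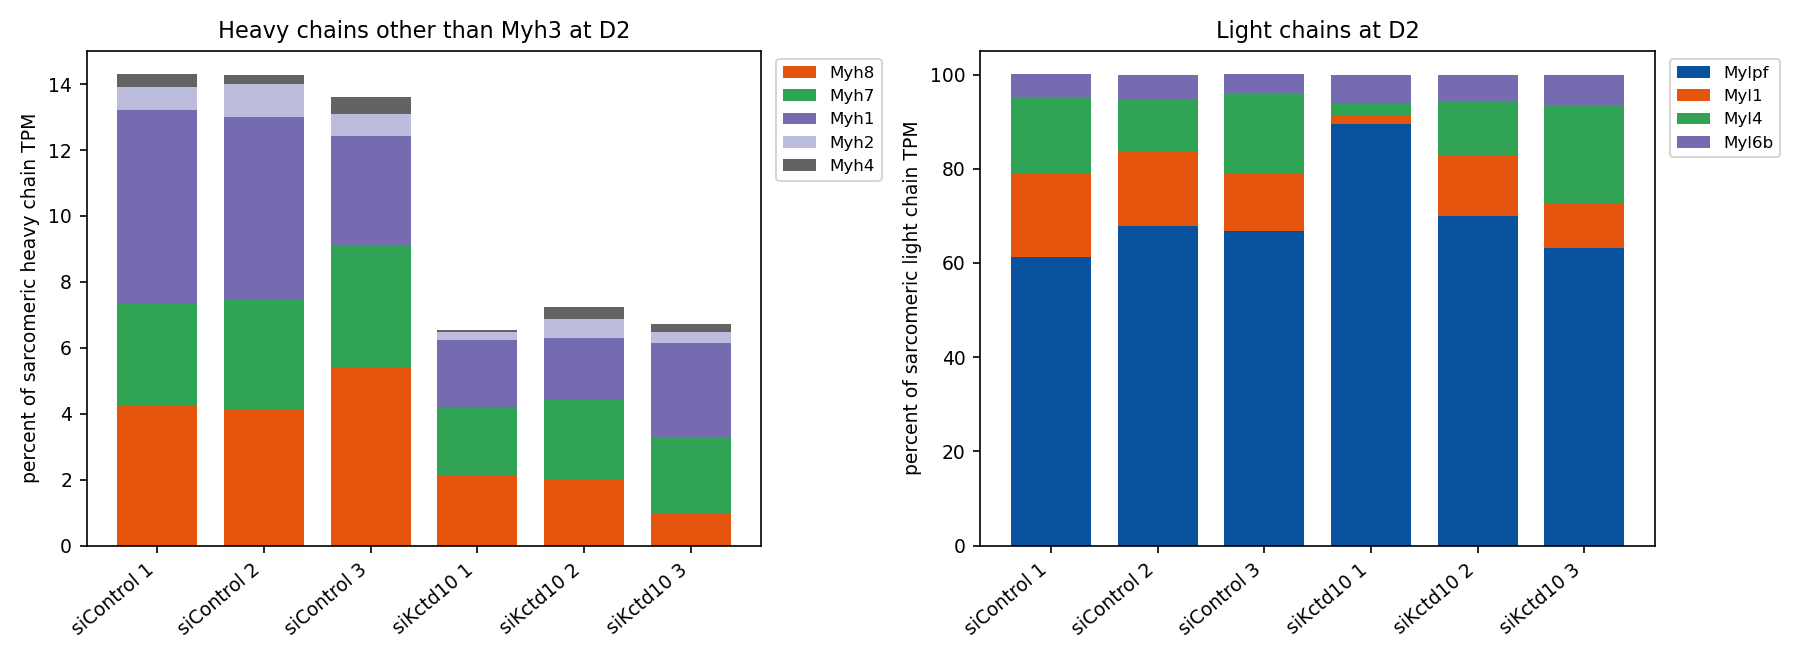
Makeup of the sarcomeric heavy chain TPM other than Myh3 (left) and of the light chain TPM (right) in the 6 D2 libraries, in percent, with each bar stacked from 0. The heavy chains other than Myh3 take a smaller share in the 3 siKctd10 libraries, and in siKctd10 library 1 Mylpf alone takes 89.5% of the light chain TPM.

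The other myosin genes, a list of 15 of which 7 passed the filter, held 3 that were called higher at D2 in siControl, against the 21.4% of all tested genes. These were Myh6, the cardiac alpha heavy chain (2.50, limma adjusted p = 7.6e-05), and the non-muscle regulatory light chains Myl12b (0.84, limma adjusted p = 0.013) and Myl12a (0.83, limma adjusted p = 0.015). In siKctd10 Myh6 was the 1 call higher (2.30, limma adjusted p = 0.00014), where 23.1% of tested genes were called higher. Myl2, Myl3 and Myl7, light chains of cardiac and slow muscle, and Myl10 were listed at 0 in all 12 libraries. Myl9, a regulatory light chain of smooth muscle and non-muscle myosin, was the 1 gene of the list called with siKctd10. At D0 it was higher by 1.24 (limma adjusted p = 0.00057), where 2.45% of tested genes were called in either direction. At D2 it was higher by 0.82 (limma adjusted p = 0.0038), where 2.83% of tested genes were called higher. The list's median difference was 0.52 at D0 and 0.18 at D2. Beside this, the summed smooth muscle markers ran from 642 to 724 TPM in D0 siControl and 1600 to 1869 TPM in D0 siKctd10, and from 1375 to 1700 and from 2477 to 3147 TPM at D2, mostly Acta2, which myoblasts also express. Smooth muscle heavy chain Myh11 did not pass the filter, at a mean of at most 0.0123 TPM in any group.

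Of 20 partners of the thick filament and chaperones of myosin, 17 passed the filter and 14 were called higher at D2 in siControl (list median 2.68), against 21.4% of all tested genes. They were led by Mybph, a myosin-binding protein (6.20), the M-band protein Myom2 (5.04) and Smyd1 (4.07). Next came the muscle ubiquitin ligase Trim63 (3.82) and Ttn, which encodes the scaffold titin (3.37). In siKctd10, 12 were called higher, led by Mybph (5.85), Myom2 (4.29), Trim63 (3.40), Ttn (2.92) and Myom1 (2.80), where 23.1% of tested genes were, and 1 lower, the chaperone Hsp90aa1 (-1.15, limma adjusted p = 0.027), where 13.3% were. The day change differed between the arms for 1 of the 17, the myosin light chain kinase family member Mylk4 (-1.08, limma adjusted p = 0.034), against 0.742% of all tested genes. At D2, siKctd10 gave 2 calls lower, both M-band proteins, Myom3 (-1.14, limma adjusted p = 0.0046) and Myom1 (-0.61, limma adjusted p = 0.028). It gave 1 call higher, Fbxo32, a muscle ubiquitin ligase subunit (0.96, limma adjusted p = 0.0027). These counts compare with 1.92% and 2.83% of all tested genes. The list's median difference was -0.09, and Ttn stood at 16.8 TPM in siControl and 15.7 TPM in siKctd10.

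Of 19 regulators of the muscle programme, 17 passed the filter. At D2, 11 were called higher in siControl (21.4% of all tested genes), led by Myog (4.64), Mef2c (2.23), Myod1 (1.69), Vgll2 (1.12) and Mef2a (1.05). In siKctd10, 12 were called higher (23.1% of all tested genes), led by Myog (4.12), Myod1 (1.24), Mef2a (1.15), Mef2c (1.03) and Mef2d (0.93). With siKctd10 at D2, 4 were called lower, against 1.92% of all tested genes. These were Mef2c (-1.54, limma adjusted p = 0.0058), Myog (-0.75, limma adjusted p = 0.016), Myf5 (-0.57, limma adjusted p = 0.005) and Myod1 (-0.37, limma adjusted p = 0.0092). Mef2c stood at means of 20.7 TPM in D2 siControl and 6.61 TPM in D2 siKctd10. The more abundant Mef2a (80.7 and 90.6 TPM, 0.19) and Mef2d (79.2 and 90.2 TPM, 0.18) were not called. Any link of these regulators to the myosin values was not tested. The list's median difference at D2 was -0.20. Myog stood at 364, 314 and 292 TPM in siControl and at 183, 216 and 178 TPM in siKctd10, with library 3 as low as the others.

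By the root mean square distance between centred log2(TPM + 1) profiles over the 12 libraries, among 3416 genes with a single transcript, Actc1, the cardiac actin of early muscle, was nearest to Myh3 (0.65), Myl4 (1.12) and Mylpf (1.32). Nearest to Myh8 were Apobec2 (0.28), Efhd1 (0.29) and Hrc (0.30). Tnnc2, the fast troponin C, was nearest to Myl1 (0.75), Fndc5 to Myl6b (0.24), Mmp15 to Myh7 (0.27), Erbb3 to Myh1 (0.40), Shisa2 to Myh2 (0.22) and Cacng6 to Myh4 (0.22). The distances describe likeness over libraries that share 4 groups, and members of small range give small distances.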

How the data were processed

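The authors deposited 1 table per library, in which StringTie (1.3.3b per the file headers, 1.1.3 per the submitters' processing notes, which also name HISAT, SAMtools, DESeq2 and mm10) lists transcripts and exons with coverage and other values, of which the TPM and coverage columns were used. The 63759 transcripts were matched to GENCODE vM21 genes by identical introns (42608) or by at least 50% exon overlap (13473), which left 3.82 to 4.63% of TPM unmatched. Gene TPM were summed, and 13079 genes of at least 1 TPM in at least 3 libraries were fitted on log2(TPM + 1) with limma 3.58.1 (R 4.3.3, trend and robust), with 4 group means and 8 residual degrees of freedom. Comparisons between days and between siRNAs share libraries. P-values were Benjamini-Hochberg adjusted over all 13079 genes, with a threshold of 0.05, after the code was tested on simulated data. Read pairs were taken as coverage times length over 202 bases. Pool shares were compared by exact permutation (scipy 1.17.1). Samples were grouped by their titles.

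The genes, lists, tests and named-gene rule were chosen with earlier results of these data known. The rule names all 10 members, of each list the genes called (the 5 of largest change per direction and comparison), and the nearest genes by profile. Cell type lists covered myoblasts, differentiating, cardiac and smooth muscle, leukocytes, endothelium, neurons and adipocytes. The 6 myoblast markers summed to between 6518 and 12553 TPM, most of it Vim, at group means of 5247 to 8997 TPM. Alternatives covered pseudocount, filter, scaling, voom, groups fitted, replicate block, matching and each library left out. Exon coverage and the removal of both siKctd10 libraries numbered 3 were added after seeing the data.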

Additional observations from a re-analysis of the deposited data

Results flagged for a closer look

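The effect of siKctd10 on Myh8 differed between D2 and D0 by -1.53 on the log2(TPM + 1) scale (limma, adjusted p = 0.0052), with the 3 D2 siKctd10 libraries below the 3 siControl libraries. Myh8 was near 0 at D0 in both arms and passed the filter only through D2, so this value repeats the D2 difference. The call was lost with a pseudocount of 0.1 (adjusted p = 0.065), with voom (0.66) and with transcripts matched by introns only (0.39).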

How the results depend on the processing

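At D2, 1 of the 10 sarcomeric myosin genes was called with siKctd10. The number was 2 when only the D2 libraries were fitted (Myh8 and Mylpf), 0 with transcripts matched by introns only, which cannot place Myh3 or Myh4, 1 to 4 when each library was left out in turn, and 3 without both siKctd10 libraries numbered 3, an alternative chosen after seeing the data. The single gene of the interaction, Myh8, gave 0 calls with a pseudocount of 0.1 (adjusted p = 0.065), with voom on estimated read pairs (0.66) and with intron matching only (0.39). With 1 library left out at a time, the D2 difference of Myh3 ran from -0.58 to 0.23, turning positive without D2 siKctd10 library 1 or 2. The interaction of Mylpf turned to 0.15 with a pseudocount of 0.1 and ran from -1.58 to 0.18 with 1 library left out (positive without D0 siControl library 3 or D0 siKctd10 library 2), and that of Myh1 to 0.51 with voom. The cause was not tested. The replicate numbers were not taken to pair the libraries: the deviations of same-numbered libraries correlated at 0.2 between the siKctd10 libraries numbered 3 of D0 and D2, and otherwise at -0.02 to 0.09. The replicate block changed no call of a sarcomeric myosin gene. Under it, 42 genes in all had an interaction against 97. Fitting only the compared groups left 72 genes called at D0 against 320, and 260 at D2 against 621, with fewer residual degrees of freedom. With 1 library left out at a time, the genes called numbered 118 to 306 at D0, 315 to 682 at D2 and 52 to 82 for the interaction, for which a pseudocount of 0.1 gave 62 and the removal of both libraries numbered 3 gave 63. The day change of Myl4 was lost with intron matching (adjusted p = 0.081 in siControl and 0.26 in siKctd10). Shares by intron matching were not computed, as Myh3 is not matched by it. Median-ratio scaling moved the median of all genes at D2 against D0 in siKctd10 from 0.117 to 0.003.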
